A study of Mus musculus with 8 samples.

Results

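Described here are the 4945 protein-coding genes that had no peak of histone H3 lysine 56 acetylation (H3K56ac) at their promoters in MuSCs, the stem cells from which skeletal muscle regenerates. The genes are autosomal, and symbols starting with Olfr, Vmn1r or Vmn2r, the large olfactory and vomeronasal receptor families, were left out. They were chosen from a merged list of 105600 peaks as the genes with no peak within 3 kb of any of their annotated transcription start sites (TSSs). They make up 25.6% of the 19350 autosomal coding genes outside these receptor families, of 21938 coding genes on the assembled chromosomes in all. The absence of a promoter peak is the rule of selection and not a result. No transcript was measured in these data, so these genes are called peak-free and not silent. Smaller receptor families of taste, smell and skin remained among them, as did V1rd19, a vomeronasal receptor under an older symbol.

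The study profiled freshly isolated MuSCs of C57BL/6 mice by chromatin immunoprecipitation and sequencing in 8 libraries. Control and Sirt6mKO mice each gave 2 H3K56ac libraries and 2 input libraries, the latter from chromatin without immunoprecipitation. The paper calls the control MuSCs of these data wild type. For control mice shown beside Sirt6mKO mice it gives the genotype as floxed Sirt6 without a Cre recombinase. Sirt6mKO mice carried floxed Sirt6 deleted by a Cre recombinase under the Pax7 promoter. By the paper's account this inactivated Sirt6 in the skeletal muscle lineage from early in muscle development. Peaks were merged into a list that gives no value per sample, so replicate spread could not be measured, no peak could be assigned to a genotype, and no test between genotypes could be made. Of 20 MuSC marker genes, such as Pax7, Myf5 and Myod1, 0 were peak-free (Wilson upper bound 16.1%). This count does not measure the purity of the sorted cells, which the authors reported as incomplete.

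H3K56ac is placed on new histones during DNA replication and on nucleosomes of active regulatory regions, and SIRT6 is among the deacetylases that remove it. Promoters of genes used in most cells lie as a rule in CpG islands, stretches where the CG dinucleotide has not been lost by mutation of methylated cytosine. Promoters of genes used by a few specialised cells often lack an island and carry a TATA box instead. Genes made by recent tandem duplication, such as those of host defence, smell, milk and the hair shaft, stand side by side in arrays.

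To show both ends of the range, the sequences upstream of 6 peak-free genes are printed, those with the lowest and the highest CpG ratio among the 112 of 143 peak-free genes in the tissue lists described below whose promoters could be shown here. Higher ratios occurred among genes whose promoters are not shown, such as 0.820 in Olig1, a factor of oligodendrocytes, and 0.786 in Cdx1, a factor of the intestine. The CpG ratio is the number of CG dinucleotides within 500 bp of the gene start divided by the number that the C and G content predicts. The sequences come from RefSeq promoters on GRCm38.p6, which held 3421 of the 4942 symbols of peak-free genes, and each gives the 200 bases before the RefSeq start, 5′ to 3′ on the strand of the gene, with CG dinucleotides and TATAA in capitals. Ivl (chr3:92573736-92573935, minus strand) encodes involucrin of the skin barrier. Umod (chr7:119479263-119479462, minus strand) encodes the urinary protein uromodulin. Prss2 (chr6:41521576-41521775, plus strand) encodes a pancreatic trypsin. Neurog1 (chr13:56252181-56252380, minus strand) encodes a factor that commits cells to neurons, Slc32a1 (chr2:158610558-158610757, plus strand) the transporter that loads GABA into vesicles, and Flt1 (chr5:147726012-147726211, minus strand) a receptor for vascular endothelial growth factor.
Ivl: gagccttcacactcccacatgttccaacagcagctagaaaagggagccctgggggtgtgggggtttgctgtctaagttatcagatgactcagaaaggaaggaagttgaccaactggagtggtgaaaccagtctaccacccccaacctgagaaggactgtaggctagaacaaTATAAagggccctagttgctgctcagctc
Umod: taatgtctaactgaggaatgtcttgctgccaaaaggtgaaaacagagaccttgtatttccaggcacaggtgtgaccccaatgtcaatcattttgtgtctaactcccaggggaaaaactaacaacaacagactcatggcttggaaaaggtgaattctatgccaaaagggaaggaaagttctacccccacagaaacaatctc
Prss2: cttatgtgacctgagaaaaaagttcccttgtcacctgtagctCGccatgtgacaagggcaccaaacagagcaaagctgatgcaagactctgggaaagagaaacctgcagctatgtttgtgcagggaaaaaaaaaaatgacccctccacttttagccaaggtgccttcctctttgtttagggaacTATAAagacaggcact
Neurog1: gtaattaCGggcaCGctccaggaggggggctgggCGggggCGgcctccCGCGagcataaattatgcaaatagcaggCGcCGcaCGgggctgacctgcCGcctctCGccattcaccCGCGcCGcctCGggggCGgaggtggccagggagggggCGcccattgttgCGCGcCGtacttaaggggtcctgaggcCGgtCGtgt
Slc32a1: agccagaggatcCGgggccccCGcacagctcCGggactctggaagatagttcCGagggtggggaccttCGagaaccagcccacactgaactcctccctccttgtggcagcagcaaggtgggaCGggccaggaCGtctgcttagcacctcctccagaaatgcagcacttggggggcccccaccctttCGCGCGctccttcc
Flt1: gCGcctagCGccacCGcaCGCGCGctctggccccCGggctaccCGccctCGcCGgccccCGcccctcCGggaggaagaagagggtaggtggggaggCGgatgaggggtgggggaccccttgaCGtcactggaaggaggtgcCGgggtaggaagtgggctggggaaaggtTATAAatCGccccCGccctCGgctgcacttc

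The first 3 of these sequences held 0, 0 and 1 CG dinucleotides, and the last 3 held 22, 10 and 18. TATAA stood in those of Ivl, Prss2 and Flt1. All 6 genes were outside the 3 kb window, but Flt1 and Slc32a1 lay close to its edge, with a peak 3.18 and 3.51 kb from a TSS. The nearest peak was 6.21 kb from Neurog1, 82.3 kb from Prss2, 106 kb from Ivl and 240.1 kb from Umod.

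Most peak-free promoters were poor in CpG. The median CpG ratio of the 4945 genes was 0.206 (95% interval of the median 0.200 to 0.211, quartiles 0.125 and 0.355), against 0.696 for the 14405 other coding genes, those with a promoter peak (0.692 to 0.701). The intervals given here for medians and shares cover counting error only, since genes are not biological replicates. A ratio below 0.4 was found in 3919 peak-free genes (79.3%, Wilson 95% interval 78.1% to 80.4%) and in 19.2% of the other coding genes. A ratio of at least 0.6 was found in 481 peak-free genes (9.73%) and in 64.8% of the others. The peak-free receptor genes left out by the rule were poorer still in CpG, with a median of 0.104 over 1444 genes, and 0 of them reached 0.6. The GC content around the start had a median of 47.5% in peak-free genes, 58.1% in the others and 36.8% in the receptor genes.

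**Figure D1:**
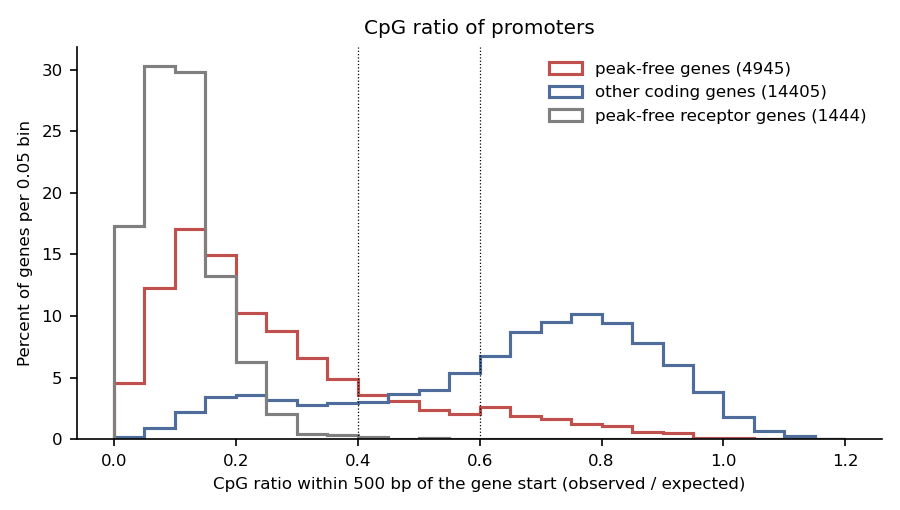
CpG ratio within 500 bp of the gene start (horizontal axis, observed over expected) as the percent of genes per bin of 0.05, for 4945 peak-free genes, 14405 other coding genes and 1444 peak-free receptor genes, with dotted lines at 0.4 and 0.6. The peak-free genes pile up below 0.4 with a tail into the range of the other genes, and the receptor genes have no such tail.

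Read the other way, 58.7% of all CpG-poor genes (ratio below 0.4, 6681 genes) were peak-free, as were 19.1% of the 2851 genes between 0.4 and 0.6 and 4.90% of the 9818 genes at 0.6 or above. The motif TATAA, the core of the TATA box, was searched on the strand of the gene from 45 to 15 bases before the start. It stood there in 520 peak-free genes (10.5%, 9.69% to 11.4%), in 2.37% of the other coding genes and in 4.45% of all 19350. Within the CpG-poor class the shares were 12.1% of the peak-free and 5.32% of the other genes. The opposite strand, read as TTATA in the same window, matched 2.69% of the peak-free genes and 0.986% of the others.

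The 481 CpG-rich peak-free genes were longer than the CpG-poor peak-free genes, with a median of 32.7 against 9.45 kb, and 22.2% of them had a peak inside the gene against 10.8%. The median distance to a peak was 45.5 kb against 50.7 kb. The 10 with the highest ratio included genes of brain development and synapses. Reln, which encodes the secreted guide of migrating neurons reelin, had a ratio of 1.01 and its nearest peak at 103.2 kb. Nptx2, which encodes a neuronal pentraxin of excitatory synapses, had a ratio of 1.03 and its nearest peak at 185.4 kb. Ctnnd2, a neuronal catenin, Shisa6, an auxiliary subunit of glutamate receptors, and the orphan receptor Gpr27 had ratios of 1.03, 1.05 and 1.01. Klf14, a Krüppel-like transcription factor, was highest with 1.11, followed by Lin28b, an RNA-binding protein of fetal and stem cells, with 1.08. Paqr9 and Bend6 had ratios of 1.05 and 0.994. BC107364 had 1.00 but only 10.4% of its promoter words were unique in the genome, a measure explained below.

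Gene families were sorted by symbol into 54 groups, which together held 1934 genes and 1052 of the peak-free genes (21.3%). In 28 families at least 80% of the genes were peak-free, against the 25.6% of all genes, and in 12 families every gene was. The families of skin and hair held 138 peak-free genes of 146. Keratins, the filament proteins of epithelia and hair, were peak-free in 46 of 53 cases, for example Krt12, Krt13, Krt14 and Krt15, whose nearest peaks lay 23.7, 132.2, 76.2 and 147.7 kb away. The 7 keratins with a promoter peak were Krt1, Krt10, Krt8, Krt18, Krt79, Krt80 and Krt222, of which Krt8 and Krt18 are the pair of simple epithelia. Keratin-associated proteins, the matrix of the hair shaft, were peak-free in 56 of 57 cases, with Krtap16-1 as the exception. All 36 late cornified envelope and Sprr genes, which build the outer skin, were peak-free, and their median CpG ratio was 0.103.

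The smaller receptor families were peak-free in 73 of 80 genes. Of 38 taste receptor genes, 34 were peak-free, and the exceptions were Tas1r1, Tas2r126, Tas2r135 and Tas2r143. All 15 trace amine-associated receptors of the nose and all 7 formyl peptide receptors were peak-free. Mas-related receptors of sensory nerves were peak-free in 17 of 20 cases, except Mrgpre, Mrgprf and Mrgprh. Secreted proteins of glands, several of them used in scent marking, were peak-free in 22 of 22 major urinary proteins, 34 of 34 secretoglobins, 15 of 15 exocrine gland-secreted peptides and 29 of 32 BPI-fold and WAP-domain proteins. The exocrine gland-secreted peptides had the most remote promoters among the families, with a median of 1236 kb to the nearest peak.

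In host defence, 22 of 22 alpha-defensins and 39 of 42 beta-defensins, antimicrobial peptides of gut and epithelia, were peak-free. The exceptions were Defb25, Defb30 and Defb42. Interferons were peak-free in 19 of 20 cases (95%, 76.4% to 99.1%), with Ifnk as the exception, at a median of 21.8 kb from a peak. Klr receptors of natural killer cells were peak-free in 24 of 26 cases and C-type lectins in 23 of 30. Cytokines were split. Of 42 interleukin genes 24 were peak-free (57.1%, 42.2% to 70.9%), among them Il10, Il17a, Il17b and Il17c. The other 18 interleukin genes had a promoter peak. They were Il2, Il6, Il7, Il9, Il11, Il12a, Il12b, Il13, Il15, Il16, Il17d, Il18, Il23a, Il25, Il27, Il31, Il33 and Il34. Of 35 chemokine genes 17 were peak-free (48.6%, 33.0% to 64.4%), among them Ccl1, Ccl12 and Ccl20.

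Families of reproduction were peak-free in 129 of 151 cases. All 25 placental genes of the prolactin family on chromosome 13 were peak-free, with a median distance of 430.6 kb. So were 26 of 28 pregnancy-specific glycoproteins and related Ceacams, all 15 Spata31 and Speer genes of the testis, and all 7 Obox and all 8 Zscan4 genes of the early embryo. The Adam metalloproteases divided, with 17 of 33 peak-free. Adam1b, Adam20, Adam21 and Adam24 were among them, while Adam10 and Adam17, the widely used sheddases, had a promoter peak. So did Adam2 of sperm and Adam1a, Adam5, Adam18 and Adam32.

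In the families of liver and metabolism 145 of 200 genes were peak-free. Carboxylesterases were peak-free in 19 of 19 cases, Ugt enzymes, which couple glucuronic acid to drugs and bilirubin, in 20 of 21, sulfotransferases in 17 of 21, Cyp2 enzymes in 38 of 48 and Cyp3 and Cyp4 enzymes in 21 of 29. Cyp3a11, a main drug-oxidising enzyme of mouse liver, had its nearest peak 121.7 kb away. Glutathione S-transferases were peak-free in 4 of 23 cases (17.4%, 6.98% to 37.1%), an interval that holds the 25.6% of all genes. The 4 were Gsta1, Gsta2, Gsta3 and Gstt4. Among proteases and their inhibitors, kallikreins were peak-free in 25 of 27 cases, Serpina inhibitors in 20 of 23 and Serpinb inhibitors in 19 of 26. Among cathepsins 14 of 23 were peak-free, including the placental Cts3, Cts6, Cts7 and Cts8 but also Ctse, which is not of the placental group. Those with a promoter peak were Ctsa, Ctsb, Ctsc, Ctsd, Ctsf, Ctsh, Ctsl, Ctso and Ctsz.

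**Figure D2:**
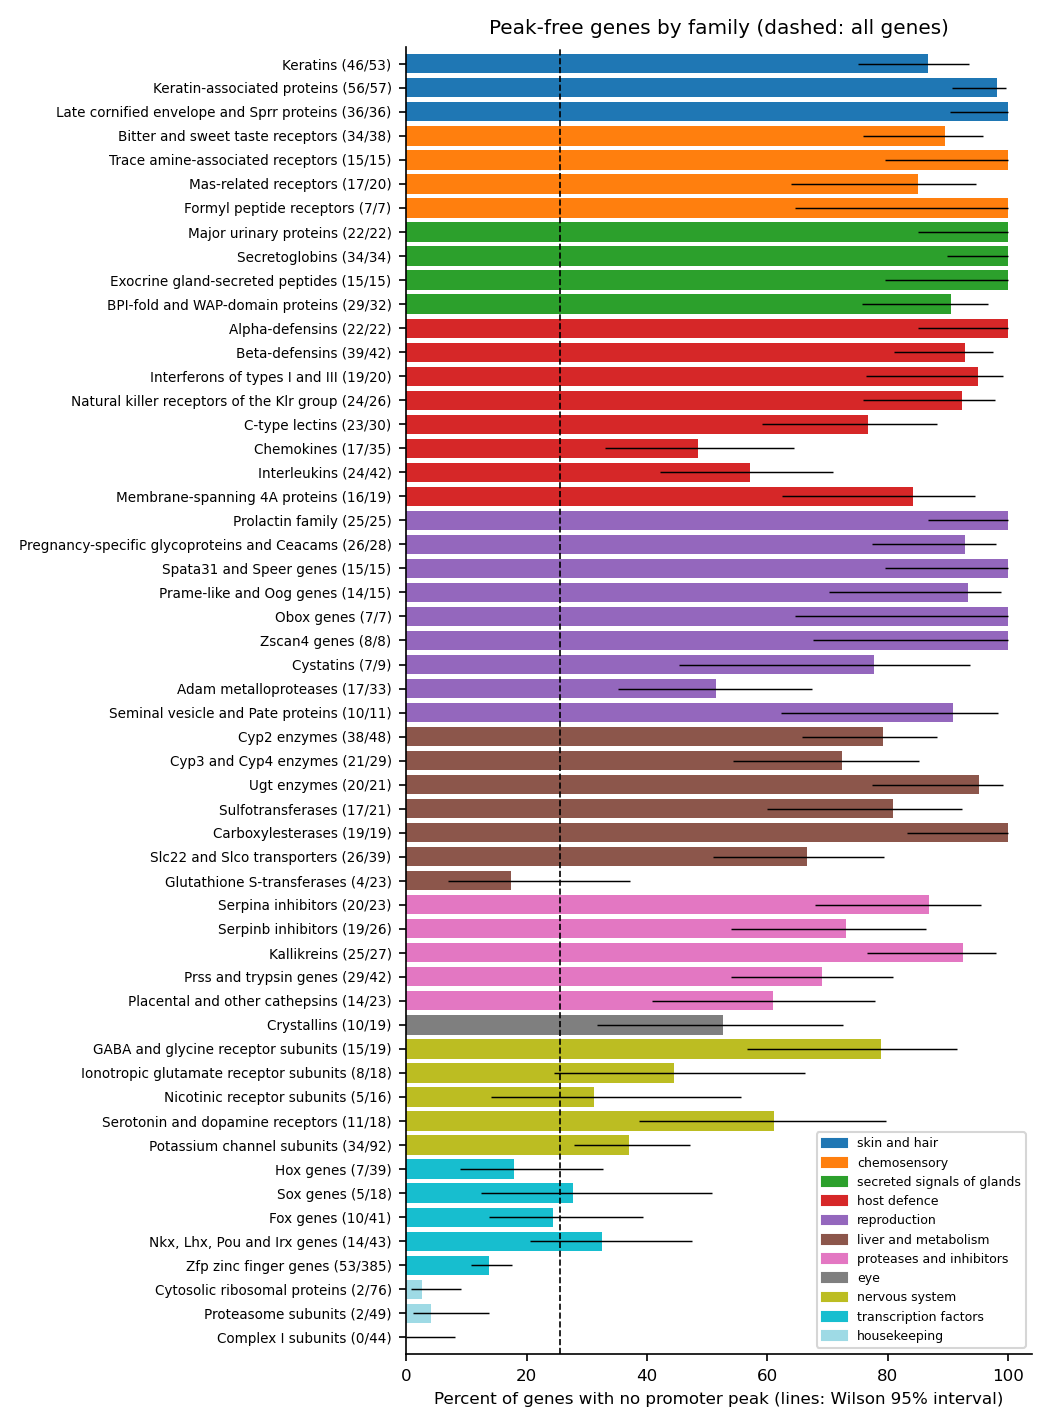
Percent of genes with no promoter peak (horizontal axis) in 54 gene families, coloured by group, with the number peak-free over the number of genes in brackets, Wilson 95% intervals as lines and the 25.6% of all genes dashed. Families of skin, scent, defence and reproduction lie far to the right of the dashed line, and the housekeeping families lie at 0 to 4.08%.

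Families of the nervous system lay between. GABA and glycine receptor subunits, the inhibitory channels, were peak-free in 15 of 19 cases (78.9%, 56.7% to 91.5%) and were remote from peaks, with a median of 604.7 kb. Gabra2, Gabra5 and Gabra6 had their nearest peaks 562.1, 886.7 and 1063 kb away. Of 18 subunits of ionotropic glutamate receptors 8 were peak-free, including Gria2 and Gria4, the serotonin and dopamine receptors were peak-free in 11 of 18 cases and potassium channel subunits in 34 of 92 (37.0%, 27.8% to 47.2%). Nicotinic receptor subunits, 5 of 16 peak-free (31.2%, 14.2% to 55.6%), were near the share of all genes. The neuronal subunits Chrna2, Chrna3, Chrnb2 and Chrnb3 were 4 of these, and the fifth was Chrng, the subunit of fetal muscle. Chrng had a peak 6.54 kb from its TSS.

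Developmental transcription factors had peak-free shares whose intervals all held the 25.6% of all genes. The counts were 7 of 39 Hox genes (17.9%, 8.98% to 32.7%), 5 of 18 Sox genes, 10 of 41 Fox genes and 14 of 43 genes of the Nkx, Lhx, Pou and Irx groups (32.6%, 20.5% to 47.5%). The peak-free Hox genes were Hoxb1, Hoxb8, Hoxb13, Hoxd1, Hoxd11, Hoxd12 and Hoxd13, and they lay 3.08 to 17.3 kb from a peak. The 5 peak-free Sox genes were Sox1, Sox14, Sox15, Sox17 and Sox21, of which 4 were CpG-rich. Irx1 and Nkx2-1, factors of the body plan and of thyroid and lung, had ratios of 0.898 and 0.668 and their nearest peaks at 289.1 and 159.5 kb. Housekeeping families were nearly empty of peak-free genes, with 2 of 76 ribosomal proteins, 2 of 49 proteasome subunits and 0 of 44 complex I genes, with a Wilson upper bound of 8.03%. The exceptions were Rpl10l and Rpl39l, ribosomal protein paralogs of the testis, Psma8, the proteasome subunit of spermatocytes, and Psme2b.

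Genes of 21 tissues and cell types were then counted from lists of known markers. The lists of tissues other than skeletal muscle held 143 peak-free genes of 248 (57.7%), against 25.6% of all genes. A CpG ratio below 0.4 was found in 115 of these 143 genes and in 68 of the 105 with a promoter peak. Of all genes with such a ratio 58.7% were peak-free. The mature muscle fibre list held 0 of 16 (upper bound 19.4%). It includes myosins and troponins of differentiated fibres such as Myh1, Myh4 and Tnnt3. The intestine was peak-free in 11 of 12 genes (91.7%, 64.6% to 98.5%), among them Vil1 of the microvilli, Fabp2, lactase (Lct), sucrase-isomaltase (Sis) and the mucin Muc2, and the exception was the glucose transporter Slc5a1. Endocrine hormones were peak-free in 13 of 16 cases, including insulin 1 (Ins1) at 658.3 kb from a peak, glucagon (Gcg) at 10.4 kb and somatostatin (Sst) at 6.66 kb, while Ins2, Calca and Cck had a promoter peak. The liver list held 11 of 16, with albumin (Alb) at 28.8 kb and Apob at 19.1 kb, and Ttr, Apoa1, Apoa2, F2 and Hpx had a promoter peak. The skin barrier held 8 of 12, with Krt5 at 59.6 kb and filaggrin (Flg) at 152.4 kb, the kidney 7 of 11, sperm cells 9 of 15, oocytes 5 of 11, exocrine pancreas 5 of 11 and lens and retina 5 of 12.

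Cells that share the muscle with MuSCs were represented too. The sort included a depletion of cells with blood and endothelial surface proteins, but the sorted cells were not fully pure. T and NK cell genes were peak-free in 12 of 16 cases (75%, 50.5% to 89.8%). They included the CD3 subunits of the T cell receptor complex, Cd3d, Cd3e and Cd3g, and the coreceptors Cd4 and Cd8a. In the same list Cd2, Il2, Zap70 and Lck had a promoter peak. B cell genes were peak-free in 7 of 11 cases, and Cd79a, Vpreb1, Pax5 and Ebf1 had a promoter peak. Myeloid genes were peak-free in 8 of 12 cases, and Cd68, Csf1r, Elane and Cd14 had a promoter peak. Ptprc, which encodes the CD45 antigen used in the depletion, had its nearest peak 73.4 kb away. Endothelial genes were peak-free in 5 of 10 cases, with Cdh5, Tie1, Emcn, Erg and Flt1 peak-free and Pecam1, which encodes the CD31 antigen of the depletion, Kdr, Tek, Vwf and Cldn5 with a promoter peak. Fibro-adipogenic genes were peak-free in 3 of 10 cases, namely Ly6a, which encodes the depleted Sca1 antigen, Adipoq and Lep. Only 66.8% of the promoter words of Ly6a and 65.4% of those of Tie1 were unique in the genome, a measure explained below. What the promoter peaks of these other cell types come from was not tested.

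Cardiac muscle genes were split, with Myh6, Nppa, Nppb, Tnnt2 and Hand2 peak-free and Tnni3, Myl2, Myl7, Nkx2-5 and Gata4 with a promoter peak. Neuronal genes were peak-free in 10 of 15 cases. Syt1, the calcium sensor of vesicle release, lay 120.8 kb from a peak, Snap25 26.7 kb and Gad1, which makes GABA, 43.4 kb. Glial genes were peak-free in 2 of 11 cases (18.2%, 5.14% to 47.7%), both of them the oligodendrocyte factors Olig1 and Olig2. Of 29 lineage transcription factors of other tissues 13 were peak-free (44.8%, 28.4% to 62.4%), including Pdx1 of the pancreas at 80.7 kb and Neurog3, a factor of endocrine precursors, at 21.2 kb. The erythroid list held 5 of 9, but 4 of those 5 were the globins Hba-a1, Hba-a2, Hbb-bs and Hbb-bt, whose duplicated promoters had 66.1% to 79.5% unique words.

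**Figure D3:**
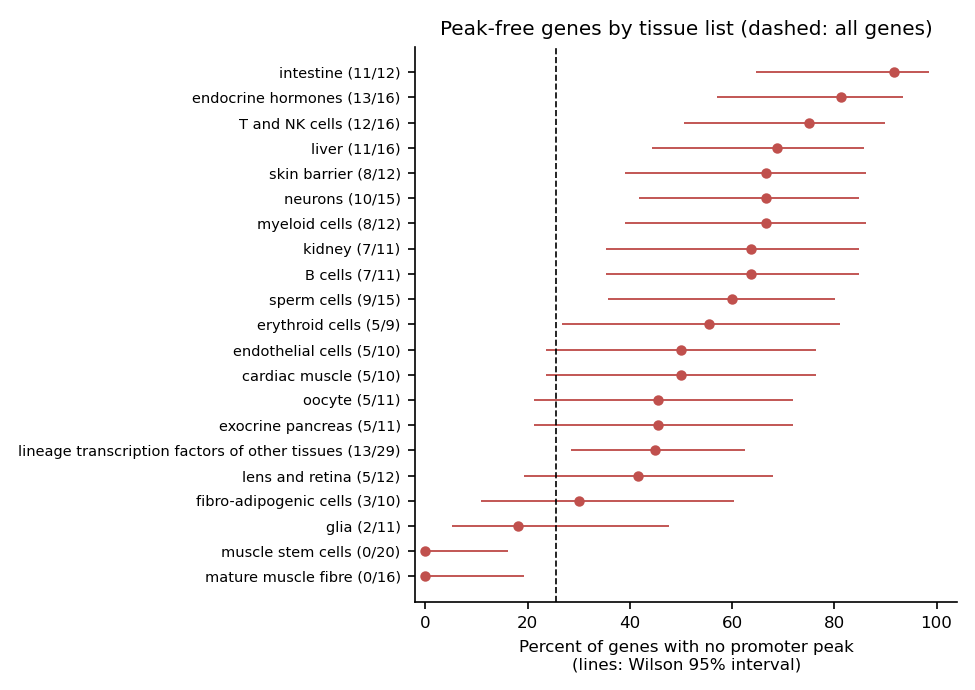
Percent of listed genes with no promoter peak (horizontal axis) for 21 tissue and cell type lists in order of the percent, with counts in brackets, Wilson 95% intervals as lines and the 25.6% of all genes dashed. The lists of muscle stem cells and of mature muscle fibre lie at 0, and the intervals of the lists with 9 to 12 genes span much of the axis.

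Across the other tissues the genes with a promoter peak were not CpG-rich either. Their median CpG ratio was 0.309 over 105 genes, against 0.244 over the 143 peak-free ones, and the medians of all genes with and without a promoter peak were 0.696 and 0.206. The median was higher in the genes with a peak in 12 of 19 lists, and higher in the peak-free genes in the other 7. Of the latter, the neuronal list had 0.516 for peak-free genes and 0.297 for those with a peak, the glial list 0.788 and 0.267, lens and retina 0.370 and 0.287, cardiac muscle 0.273 and 0.219 and exocrine pancreas 0.273 and 0.225. The endothelial list (0.330 and 0.317) and the lineage transcription factors (0.647 and 0.635) differed by less.

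Symbol roots, the letters before the first digit, gave a view not limited to the families fixed by name. The 10 roots with most peak-free genes were Gm (910 of 1228), the name of predicted genes, then Slc (97 of 358), Cyp (65 of 100), Krtap (56 of 57), Zfp (53 of 385), Cd (48 of 97), Krt (46 of 53), Defb and Fam (39 of 42 and 39 of 196) and Tmem (36 of 235). These are counts, and large roots stand high in them for their size. Against the 25.6% of all genes, the peak-free share was 27.1% in Slc, 19.9% in Fam, 15.3% in Tmem and 13.8% in Zfp, and 49.5% to 98.2% in the other 6 roots. Genes named Gm or Rik, most of which have no assigned function, made up 22.9% of the peak-free genes and 4.40% of the others. Of the 274 roots with at least 10 genes, 16 were peak-free throughout and 59 held no peak-free gene.

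Peak-free genes stood next to each other. Along the autosomes, with receptor genes taken out of the order, the next coding gene was peak-free for 2796 of 4935 peak-free genes (56.7%, 55.3% to 58.0%) and for 14.9% of the other coding genes (14.3% to 15.5%). They formed 2149 runs of consecutive genes. Runs of a single gene held 28.3% of the peak-free genes, runs of 2 to 4 held 27.9%, and the 178 runs of at least 5 held 2165 genes or 43.8%. The 26 runs of at least 20 genes held 869 genes, 17.6% of the total.

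The 5 longest runs were arrays of duplicated genes. The longest, from Gm2888 to Gm45521 on chromosome 14 (3030002 to 7960636, 4.93 Mb), held 102 genes, 98 of them named Gm, and 6 peaks. The next, from Defb40 to Ccdc70 on chromosome 8 (18974940 to 21974041), held 64 genes, including 24 beta-defensins and 22 alpha-defensins. The run from Mat1a to Ear1 on chromosome 14 (41105035 to 43875517) held 58 genes and 0 peaks and began with Mat1a, Sftpa1, Mbl1 and Sftpd, genes of liver methionine metabolism, lung surfactant and innate lectins, before 49 genes named Gm. The run from Prr9 to Lce3f on chromosome 3 (92122204 to 92993426) was part of the epidermal differentiation complex and held 45 genes. That from Krt12 to Krtap29-1 on chromosome 11 (99415666 to 99979053) was part of the keratin locus and held 44.

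These arrays differed in how much unique sequence they offered. For each gene the 50-base words within 3 kb of its start were sampled every 20 bases, and the share occurring only once in the assembled genome was taken. The authors kept reads with a single alignment, which removes reads from sequence that occurs more than once. The median unique share was 7.89% in the longest run and 15.6% in the run from Mat1a to Ear1. It was 96.98% in the run of the epidermal differentiation complex and 92.4% in that of the keratin locus. The defensin run lay between, at 65.4%.

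Over all peak-free genes the median unique share was 96.3% (quartiles 83.6% and 99.0%), against 98.3% for the other coding genes. At least 80% of words were unique for 3809 peak-free genes (77.0%, 75.8% to 78.2%) and for 98.2% of the others. Of the 743 genes with under 50% of words unique, 701 (94.3%) were peak-free. Among the 17951 genes with at least 80% unique words the peak-free share was 21.2% in place of 25.6%. Families differed in this respect. Of the alpha-defensins and Zscan4 genes 0 reached 80% unique words, and of the major urinary proteins 3 of 22. The counts were 5 of 15 for the Spata31 and Speer genes, 3 of 7 for the Obox genes and 14 of 34 for the secretoglobins. What repeated sequence contributes to the lack of peaks in the genes below 80% was not tested. Of 53 peak-free Zfp genes 12 reached 80%, out of 321 such Zfp genes in all. Skin and hair families kept 130 peak-free genes of 138 at that limit, receptor families 69 of 76 and nervous system families 73 of 163.

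Chromosomes 11 and 14 held the lowest and the highest share. On chromosome 14, 356 of 860 genes were peak-free (41.4%, 38.1% to 44.7%), and on chromosome 11, 310 of 1557 (19.9%, 18% to 22.0%), with a median of 25.5% over the 19 autosomes. Among genes with at least 80% unique words chromosome 14 had 22.9%, within the range of 16.7% to 27.3% over all autosomes.

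**Figure D4:**
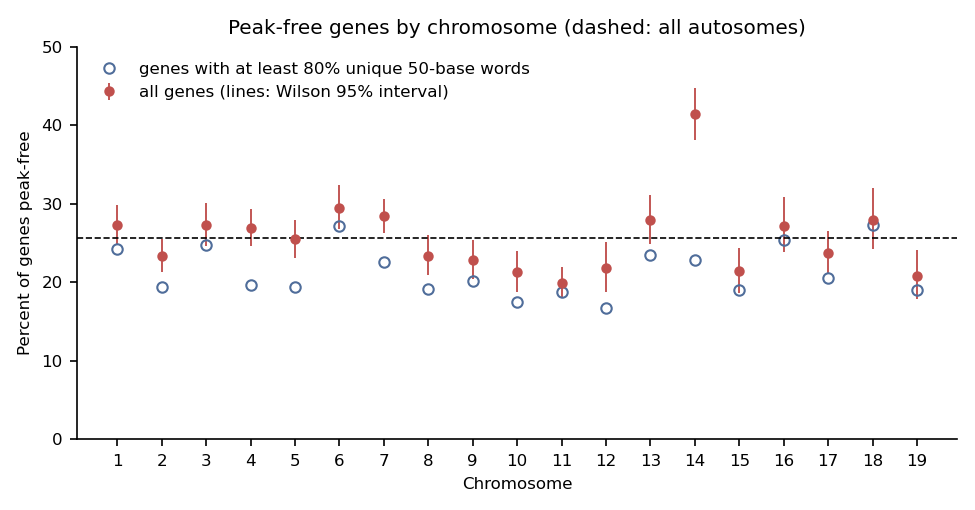
Percent of coding genes outside the receptor families that are peak-free (vertical axis) on each of 19 autosomes, for all genes (filled, with Wilson 95% intervals) and for genes with at least 80% unique 50-base words (open), with the 25.6% of all autosomes dashed. Chromosome 14 stands apart at 41.4% for all genes and falls among the others at 22.9% for genes with unique promoters.

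Distances to the nearest peak ran over 3 orders of size. The median was 46545 bp (43966 to 49241 bp, quartiles 14272 and 164349 bp), against 259240 bp for the 1444 peak-free receptor genes. A distance beyond 100 kb was found for 1660 peak-free genes (33.6%) and for 75% of the receptor genes, and 209 peak-free genes (4.23%) lay beyond 1000 kb. No peak lay within 100 kb of the gene start on either side for 1722 genes (34.8%), against 0.229% of the other coding genes and 75.6% of the receptor genes. The 5 most remote genes, Gm2888, Gm2897, Gm10340, Gm5795 and D830030K20Rik, stood in the longest run at 4548 to 4743 kb from a peak and had 6.04% to 26.5% unique words.

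**Figure D5:**
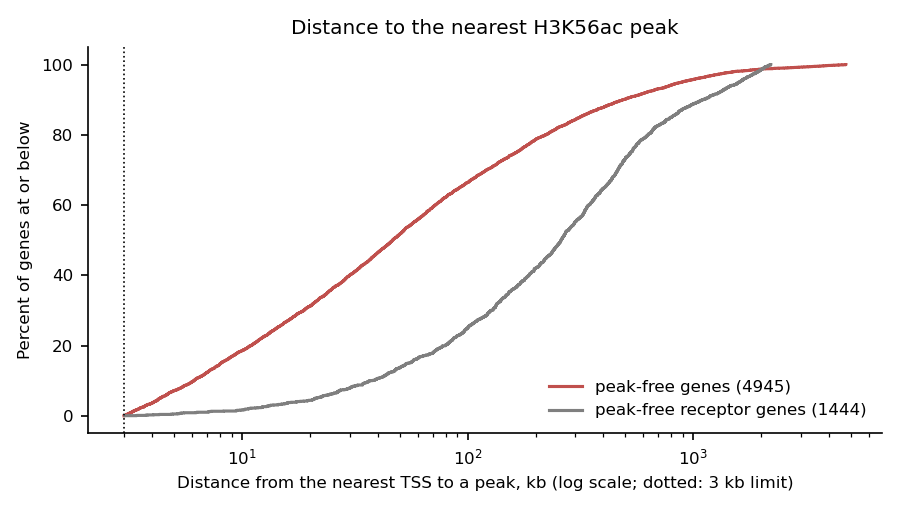
Distance from the nearest TSS to a peak in kb (horizontal axis, log scale) against the percent of genes at or below it, for 4945 peak-free genes and 1444 peak-free receptor genes, with the 3 kb limit dotted. The medians are 46545 and 259240 bp, and the curve of the receptor genes lies to the right up to about the most remote genes.

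At the edge of the window the rule separated like values. The nearest genes outside were Muc4, a membrane mucin, at 3006 bp, and 2610028H24Rik and Nlrp10, each at 3007 bp. The genes farthest inside were Spink2 at 2989 bp, the intestinal anion exchanger Slc26a3 at 2987 bp and Gm10134 at 2973 bp. In all, 215 genes lay at 2 to 3 kb and 181 at 3 to 4 kb, and 3.66% of the peak-free genes fell in the latter range. Prm2 of sperm at 3.10 kb and Hoxb8 at 3.08 kb were close to the limit too.

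A peak inside the gene, away from its starts, was found in 621 peak-free genes (12.6%, 11.7% to 13.5%). Counted the same way, a peak inside the gene and more than 3 kb from each of its own TSSs was found in 44.2% of the other coding genes (43.35% to 44.97%). Leaving out 3 kb on either side of each TSS gives short genes little room for a body peak, and the other genes were longer. The share rose with length from 2.69% of peak-free genes below 10 kb to 26.6% at 30 to 100 kb and 44.1% of the 127 of at least 300 kb. In the other coding genes it was 10.6%, 66.2% and 87.9% in these length classes. Of the 621 genes, 145 had a body peak within 3 kb of a TSS of another coding gene. Among the 5 longest peak-free genes, Lsamp, a cell adhesion protein of limbic neurons (2197 kb), held 4 peaks, the receptor Lrp1b (2058 kb) 1, the presynaptic neurexin Nrxn3 (1612 kb) 1, Agbl4, an enzyme that trims glutamates from tubulin (1267 kb), 37, and Lingo2 (1245 kb) 2.

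Peak-free genes were shorter and had simpler annotation. Their median length was 10.6 kb against 23.4 kb, with 5 against 9 exons in the transcript with most exons. A gene with more annotated TSSs has more windows in which a peak can fall, so the rule by itself favours genes with few. Of the genes with 1 TSS 54.6% were peak-free, of those with 2 or 3 TSSs 32.4% and of those with at least 4 TSSs 9.53%. Repeat-masked sequence took a median of 12.4% of the bases around the start, against 7.99% in the other genes. A single exon was annotated for 560 peak-free genes (11.3%) and for 2.99% of the others.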

How the data were processed

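The authors sequenced the libraries on an Ion Torrent Proton, trimmed reads with Trim Galore, aligned them to mm10 with bowtie 1.1.2 keeping single alignments, marked duplicates in Picard and used MACS2 to call peaks. Peaks outside blacklisted regions were merged with GenomicRanges. These steps are given for embryonic stem cell data, to which the MuSC methods refer back, and which libraries entered the merge is not given in the sources used here. The deposited list holds positions and a score that is 0 in every row, with 0 columns of values per sample.

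Positions were compared with GENCODE vM21 and GRCm38, the same build as mm10, in Python 3 (numpy, pandas, numba). A gene was peak-free when no TSS lay within 3000 bp of a peak. No test was run, since the rule used the peaks and genes are not replicates. Shares carry Wilson 95% intervals and medians order-statistic 95% intervals. Functions were checked on made-up data. The genes, families and tissue lists were chosen with earlier results of these data known. Symbols caught by error (Ifnar1, Ifnar2, Ifnlr1, Il1r1, Il1r2, Il4i1, Glrp1 and glutaredoxins) were taken out of 3 families after their values were seen. Listed genes on chromosome X or without a matching symbol were not counted. Named genes were the first examples of each list or family in order or its exceptions with a peak, the 5 longest runs, the 5 most remote and 5 longest genes, the 10 with the highest CpG ratio, 3 on either side of the window limit and the 10 commonest roots. Others were chosen after their values were seen. Some genes are not reported here.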

Additional observations from a re-analysis of the deposited data

How the results depend on the processing

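No paired analysis was possible because no column of the peak list belongs to a sample, and for the same reason leaving out a replicate and the comparison of Sirt6mKO with Control were not run. The number of peak-free genes stayed within 1.5 times of 4945 under 8 alternatives, from 3809 to 5546. The other measures left their 95% intervals as follows. A window of 1 kb gave a peak-free next gene for 55.1%, a median distance of 37.4 kb and a body peak in 17.1%, and a window of 5 kb gave 53.6 kb and 10.3%. The start of the gene alone gave a median CpG ratio of 0.212, 41.5 kb and a body peak in 21.7%. TSSs of protein-coding transcripts gave a body peak in 15.3%, and peaks of at least 500 bp in 14.35%. Without Gm and Rik genes the CpG ratio was 0.221, the next gene was peak-free for 50.7%, the distance was 38.6 kb, a body peak was found in 13.96% and the unique share was 97.3%. Without genes of under 80% unique words these values were 0.223, 46.8%, 33.3 kb, 15.6% and 97.99%, and the other coding genes had a peak-free next gene in 14.3%. With chromosome X the distance was 50.8 kb. Words of 100 bases gave a unique share of 99.7%, and keeping receptor genes in the order gave a peak-free next gene for 65.65%. The list carries no read counts, so a missing peak may be a signal below detection in these libraries.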

Other observations

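The clustered protocadherins, cell adhesion proteins whose alternative first exons give neurons their surface identity, were looked at after their values were seen. First exons with their own promoters are annotated as separate genes on chromosome 18. The symbol Pcdha11 is carried by more than a single entry, and each entry was counted. Of the alpha cluster 12 of 14 genes were peak-free, and the exceptions were Pcdhac1 and Pcdhac2. Of the beta cluster 20 of 22 were peak-free, except Pcdhb2 and Pcdhb14, and of the gamma cluster all 12 Pcdhga and all 6 Pcdhgb genes. The 3 genes Pcdhgc3, Pcdhgc4 and Pcdhgc5 had a promoter peak. Of the 12 peak-free alpha genes 11 had a CpG ratio of at least 0.6, whereas 0 of the 20 peak-free beta genes did. The median unique share was 93.3% to 96.98% in the alpha, beta, Pcdhga and Pcdhgb groups. The genes of the alpha and gamma clusters share their last exons, so their gene bodies overlap and body peaks cannot be assigned to a single member.

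The peak-free genes with most body peaks were also looked at after their values were seen. Gm42906 held 72, Agbl4 and Iqschfp 37 each and Atp5o 33. Of these, 16, 4, 9 and 18 peaks lay within 3 kb of a TSS of another coding gene. The next, Ptprq of the inner ear and the receptor tyrosine kinase Alk, held 29 and 23 peaks, and 0 of them lay there. Peaks covered 29.8% of Ptprq and 5.14% of Alk. The entries of Gm42906, Iqschfp and Atp5o spanned 364.6, 734.2 and 242.6 kb with 1 annotated TSS each. A symbol stands here for a single annotated entry, and any other entry of that symbol is not covered.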
